A study of Mus musculus with 6 samples.

Results

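The 10 genes described here are the transcription factor gene Nfe2l2 (which encodes NRF2), its inhibitor Keap1, and 8 genes that NRF2 is known to control: Nqo1, Hmox1, Txnrd1, Txn1, Srxn1, Prdx1, Prdx6 and Slc7a11. They were chosen by symbol, and all 10 were listed in the count matrices of every library, among 26903 genes in all. The libraries were single-cell RNA sequencing of fresh renal cortex from mice aged 9 months and labelled male, of which 3 were wild type (WT) and 3 Prdm16 global knockout (KO). In the KO mice Cas9 had removed exon 2 of Prdm16 in every cell of the body, so that no cell type in these libraries is an unaffected reference. Each library came from 1 mouse, and the cortex had been cut up and digested with collagenases at 37 °C before cells were captured.

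NRF2 is a basic leucine zipper factor that KEAP1 binds and sends to the proteasome. Oxidants and electrophiles modify cysteines of KEAP1, NRF2 then escapes, pairs with small MAF proteins and switches on genes with antioxidant response elements. Its targets form connected groups. NQO1 reduces quinones, HMOX1 breaks down heme, SLC7A11 imports cystine for glutathione synthesis, thioredoxin (Txn1) and its reductase (Txnrd1) carry reducing power to proteins, and peroxiredoxins (Prdx1, Prdx6) remove peroxides, with sulfiredoxin (Srxn1) repairing over-oxidised peroxiredoxin. In the kidney the pathway is known for guarding tubule cells against oxidative and ischemic injury.

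The libraries held between 96382945 and 121198131 UMIs (unique molecular identifiers, each standing for 1 captured transcript). After filtering, 28488 cells remained, between 3538 and 6276 per library, and they were grouped into classes that resembled kidney cell types in their marker genes. PCT, DLH, LOH, DCT and CNT stand for cells like those of the proximal convoluted tubule, the descending and thick ascending limbs of the loop of Henle, the distal convoluted tubule and the connecting tubule, and PC and IC for cells like principal and intercalated cells. The other names (macula densa, podocyte, endothelial, stromal and mesangial, macrophage, T and NK, neutrophil, B) likewise mean only that the cells resembled that type. PCT cells were few in this tissue labelled cortex, 39, 175 and 222 in WT and 11, 37 and 16 in KO. These numbers depended on the filter, which included a limit on mitochondrial UMIs. Without that limit 67237 cells of all kinds remained instead of 28488, and UMIs of Txn1 in PCT rose from 2791 to 6545. The added barcodes took the class of their nearest retained cells. How far the limit accounts for the low PCT numbers was not tested. The 10 leading genes included the cytokine gene Lif in PC, the stress gene Nupr1 in 1 podocyte-like cluster, and the immune genes Tnf, Ccl3 and Ccl4 in macrophage-like cells.

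Before any comparison, 2 libraries stood apart from their label. WT replicate 2 and KO replicate 1 held Xist at 297 and 306 CPM (UMIs of a gene per 1000000 UMIs of the library or, below, of the class) and Y-linked transcripts at a sum of at most 0.0613 CPM, whereas the other 4 had Xist at no more than 0.216 CPM and a Y-linked sum of 110 to 133 CPM. Each group had 1 such library, and many, though not all, results are given below also without both. Prdm16 itself was at 32.4, 26.7 and 27.1 CPM over all WT cells and at 21.0, 24.9 and 23.5 CPM over all KO cells. UMIs lie at the 3′ end of transcripts, outside the deleted exon, so these levels do not check the genotype. In the 7 classes where Prdm16 could be tested its log2 fold change, KO against WT, lay between -0.42 (IC) and -0.21 (CNT), and 0 had a Benjamini-Hochberg adjusted p under 0.05 in edgeR's or DESeq2's test on counts summed per library. LOH alone had an unadjusted p under 0.05 in edgeR (-0.34, SE 0.11, adjusted p = 0.13). No pair of libraries shared more than 2 cell barcodes.

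The positions of the genes in GENCODE vM21 on GRCm38 (mm10) were as follows. Nfe2l2 lies at chr2:75675513-75704641 on the minus strand and Keap1 at chr9:21229730-21239361 on the minus strand. Of the targets, Nqo1 lies at chr8:107388225-107403206 (minus), Hmox1 at chr8:75093621-75100589 (plus) and Slc7a11 at chr3:49892526-50443614 (minus). The thioredoxin genes are Txnrd1 at chr10:82833951-82897712 (plus), Txn1 at chr4:57943373-57956411 (minus), Srxn1 at chr2:152105516-152111376 (plus), Prdx1 at chr4:116685544-116700822 (plus) and Prdx6 at chr1:161240112-161251219 (minus). Whether counting used the strand is not given in the sources used here, so that reads of Keap1, Txnrd1 and Slc7a11 could not be told apart from those of the overlapping listed genes Gm16754, Gm38560 and Gm37854, and those of Txnrd1 also from Eid3 on its own strand. Prdx6b, a near copy of Prdx6, was also listed, and Prdx6 values are uncertain to that extent.

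The antioxidant response element, to which NRF2 and small MAF proteins bind, has the core TGACNNNGC. That core was searched on both strands in RefSeq promoters (GRCm38.p6, 250 bases before to 50 after each start). It was present in 12.4% of all 32851 promoters of that length. Promoters were matched for 8 members, all except Hmox1 and Prdx6, and a promoter of 4 of them held the core: Nfe2l2, 1 of 3 listed for Txnrd1, Srxn1 and Prdx1. These 4 stretches are shown because they carry the sequence to which the pathway's own factor binds, with the core in capitals (read on the opposite strand in Txnrd1, Srxn1 and Prdx1), each written 5′ to 3′ along its gene.
Nfe2l2, chr2:75704885-75704913, minus strand: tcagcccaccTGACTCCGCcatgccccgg
Txnrd1, chr10:82859104-82859132, plus strand: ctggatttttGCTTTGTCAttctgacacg
Srxn1, chr2:152105542-152105570, plus strand: gcagtgggcaGCTAGGTCAgagtgagaca
Prdx1, chr4:116685456-116685484, plus strand: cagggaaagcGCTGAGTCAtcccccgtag
The core lay between 240 and 232 bases before the start in Nfe2l2, 92 and 84 before it in Txnrd1, 133 and 125 before it in Prdx1, and 29 to 37 bases after it in Srxn1. The promoters of Keap1, Nqo1, Txn1 and Slc7a11 did not hold these letters in this window. A match is a run of letters and was not tested as a binding site.

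Levels over the cell classes are described first, as CPM within each library and class, with the mean ± SD of 3 libraries per group unless stated. They are a description without a test, since the classes were built from the same counts. The UMIs of a class include mitochondrial UMIs, whose median share per cell differed between classes. Over libraries it ran from 39.6% to 43.8% in LOH, 10.9% to 13.9% in the podocyte-like class and 6.27% to 10.4% in the macrophage-like class. A higher share lowers the CPM of all other genes. Its part in the orders of classes and in correlations over classes was not tested. Nfe2l2 was present in every class. Among the 13 classes with at least 10 cells in each library, its mean over the 6 libraries was highest in PC at 254 CPM, followed by the macrophage-like class at 238 and IC at 226, and lowest in the podocyte-like class at 77.2. In PC it was at 269 ± 6.4 CPM in WT and 239 ± 30.8 in KO, and in the podocyte-like class 73.0 ± 11.5 and 81.4 ± 14.5. The ranges of all neighbours in that order overlapped, while PC (204.7 to 275) and the podocyte-like class (63.6 to 97.6) lay apart. Dropping the limit on mitochondrial UMIs adds barcodes in which they exceed 50%, which by itself lowers the CPM of other genes. Without that limit, Nfe2l2 was lower in PCT, at 39.6 CPM in WT and 32.2 in KO. The podocyte-like class was then at 70.8 and 79.8. Keap1 followed another order, highest in the endothelial-like (52.3 CPM), stromal and mesangial-like (48.7) and podocyte-like (43.9) classes and lowest in PCT (20.05) and LOH (20.13). Across the 13 class means in WT, on the log2(CPM + 1) scale, Pearson's r between Nfe2l2 and Keap1 was -0.51, a description over points that share libraries and depth.

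**Figure D1:**
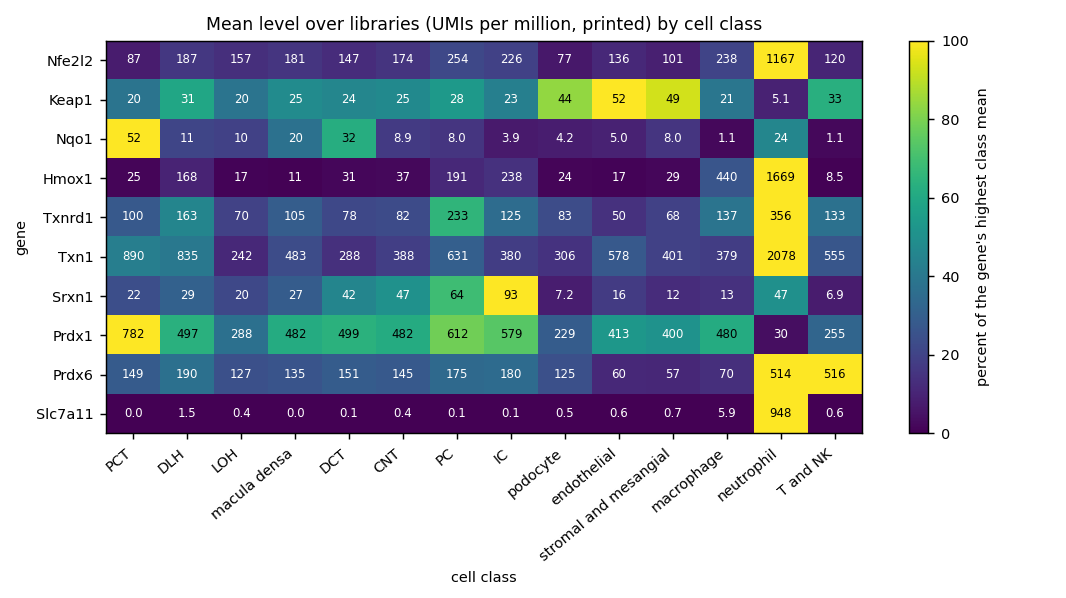
Mean level over the libraries, in CPM (printed in each cell), of the 10 genes (rows) in each cell class (columns), with colour for the percent of the highest class mean of that gene. Slc7a11, Hmox1, Nfe2l2, Txnrd1 and Txn1 were highest in the neutrophil-like class, Srxn1 in IC, Nqo1 and Prdx1 in PCT, and Keap1 in the endothelial-like class.

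Nqo1, the quinone reductase gene, was highest in PCT, at 55.8, 52.7 and 72.7 CPM in WT and 0, 57.3 and 74.4 in KO, where the 0 came from the library with 11 PCT cells. DCT came next, with 32.9 ± 3.6 CPM in WT and 31.9 ± 10.1 in KO, and the macula densa-like class, at 19.5 as a mean over the 6 libraries, after it. In IC and the podocyte-like class Nqo1 was below 8 CPM in every library, and the macrophage-like class gave 2 UMIs in all. PCT levels depended on the limit on mitochondrial UMIs: without it, Nqo1 there had a mean of 27.2 CPM in WT instead of 60.4. In KO the mean in PCT was then 7.20 CPM. DCT then stood above PCT, at 28.7 CPM in WT and 26.4 in KO. Txn1, Prdx1 and Nfe2l2 were also lower in PCT without the limit, so the fall was not particular to Nqo1. The part of the added mitochondrial UMIs in these values was not tested. The 3 genes whose WT class means were most like those of Nqo1 among 8945 genes, by Pearson's r over 13 classes, were Minpp1 (0.92), Dpyd (0.90) and Hadh (0.89).

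Hmox1, the heme oxygenase gene, varied widely between tubule classes. It was at 238 CPM in IC, 191 in PC and 168 in DLH as means over the 6 libraries, and at 37.0, 30.5 and 16.9 in CNT, DCT and LOH. The range in IC, 139 to 351 CPM, lay wholly above that in CNT, 23.4 to 63.9. Hmox1 was also high in the macrophage-like class, from 302 to 792 CPM. IC held 38.2% of all Hmox1 UMIs of retained cells, with 15.6% of all UMIs. Within IC, the cluster led by Slc26a4 and Insrr had a mean of 265 ± 168 CPM in WT and 306 ± 112 in KO, and the cluster led by Slc4a1 and Aqp6 had 117 ± 67.2 and 182 ± 23.1. IC also held a cluster led by Atp6v1g3 and Spink8 (51.6% of WT and 35.9% of KO cells), whose Hmox1 level is not given here. Slc11a2 (0.90), Tep1 (0.86) and Rnh1 (0.78) had the most similar WT class means by Pearson's r. Slc11a2 encodes the iron transporter DMT1.

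Slc7a11, the cystine carrier subunit, was found mostly in 1 class. Neutrophil-like cells, with 0.714% of all UMIs, held 1059 of its 1138 UMIs (93.1%), and the other 79 were spread over all remaining cells. In that class it was at 825 and 1473 CPM in WT replicates 2 and 3 and at 878, 565 and 1000.1 in the KO libraries. Among the 13 larger classes its highest mean was 5.87 CPM, in the macrophage-like class. WT replicate 1 had no neutrophil-like cell, and WT replicates 2 and 3 had 31 and 19. Over those 13 classes, where its UMIs were few, Ccl9 (0.92), Slco2b1 (0.92) and Ccl7 (0.91) had the WT class means most like those of Slc7a11. Slc7a11 had too few UMIs in all 13 classes to be tested.

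Most other members were also measured in the same neutrophil-like cells. They had the highest Nfe2l2 level, 1337 and 1937 CPM in WT and 1148, 841 and 574 in KO, with both WT libraries above the KO libraries. Txn1 was also highest there, between 1892 and 2476 CPM, and Txnrd1 was at 413 and 600.1 CPM in WT and at 267, 210.2 and 292 in KO. Prdx1, by contrast, lay between 0 and 89.1 CPM, below its level in every library of every tested class, where the lowest was 180. Keap1 was at 12 UMIs in these cells over all libraries. Hmox1 was at 264 and 846 CPM in WT (16 and 31 UMIs) and at 2511, 1735 and 2990 in KO (1608, 586 and 604 UMIs), so that the KO libraries lay above both WT libraries. This class was not tested, because WT replicate 1 had no such cell.

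Txnrd1, the thioredoxin reductase, was highest in PC among the tested classes, at 213, 269 and 476 CPM in WT and 109, 165 and 166 in KO. DLH followed at 163 CPM as a mean over the 6 libraries, and the endothelial-like class was lowest at 50.4. Txn1, its substrate thioredoxin, was highest in PCT (997 ± 163 in WT, 784 ± 286 in KO) and DLH (820 ± 264 and 850 ± 216) and lowest in LOH (255 ± 5.8 and 229 ± 7.7). LOH came after DCT in that order, and their ranges touched without overlap (220 to 259 against 259.2 to 316 CPM). Without the limit on mitochondrial UMIs, Txn1 in PCT had means of 461 CPM in WT and 223 in KO. These lay below DLH, at 785 and 834. Among the genes most like Txnrd1 was Maff (r 0.85), a small MAF partner of NRF2, after Map3k2 (0.85) and before Lmo4 (0.84). For Txn1 they were Eif6 (0.92), Arpp19 (0.88) and Ldha (0.85), the last a glycolytic enzyme gene.

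Srxn1, the repair enzyme of peroxiredoxins, had its highest level in IC, 90.9 ± 15.1 CPM in WT and 94.4 ± 14.2 in KO. PC, CNT and DCT followed at 63.7, 46.8 and 42.0 CPM as means over the 6 libraries, and the podocyte-like class stood at 7.24. The IC range (75.1 to 105 CPM) and the podocyte-like range (3.34 to 8.58) were far apart. Within IC, the Slc26a4 cluster had 112 ± 22.5 CPM in WT and 116 ± 15.9 in KO, and the Slc4a1 cluster 53.0 ± 6.6 and 56.8 ± 17.3. The Srxn1 level of the IC cluster led by Atp6v1g3 and Spink8 is not given here. Six4 (0.90), Atp6v0b (0.90) and Slc44a3 (0.90) were most like Srxn1 over classes, and Atp6v0b encodes a subunit of the proton pump that marks intercalated cells.

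Prdx1 was highest in PCT (782 CPM as a mean over the 6 libraries), PC (612) and IC (579) and lowest in the podocyte-like class (229). Without the limit on mitochondrial UMIs, Prdx1 in PCT had means of 408 CPM in WT and 192 in KO. These lay below PC, at 621 and 529. Srxn1 and Prdx1, the repair enzyme and one of its substrates, were the pair of members whose WT class means resembled each other most (Pearson's r 0.72 over 13 classes). Tmem14c (0.82), Amdhd2 (0.81) and Coprs (0.81) were the closest to Prdx1 among all genes. Prdx6 had a different order over these 13 classes, with the T and NK-like class first at 516 CPM (341 to 759), above DLH (129 to 244) without overlap. That high level was shared by neutrophil-like cells, which are not among the 13. They held 601 Prdx6 UMIs, 2.25% of its total, beside 0.714% of all UMIs. Without the limit on mitochondrial UMIs, their libraries ranged from 413 to 556 CPM for Prdx6. The T and NK-like libraries then ranged from 340 to 686. In the endothelial-like (60.4 CPM) and stromal and mesangial-like (56.8) classes Prdx6 was lowest. Hacd3 (0.91), Fzd5 (0.89) and Eif4e2 (0.89) were most like it. For Nfe2l2 the closest genes were Blnk (0.90), Fam234b (0.88) and Trib1 (0.87).

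WT and KO libraries were then compared in each class, to ask whether loss of Prdm16 changed this pathway in any cell type. Counts were summed per library and class and tested with edgeR's quasi-likelihood test, and a gene was called at a Benjamini-Hochberg adjusted p under 0.05 over all genes of its class. Of 130 pairs of a member and a class, 102 had enough UMIs to be tested, and 0 were called. Unadjusted, 12 (11.8%) had a p under 0.05 in edgeR, beside 11.6% of all 98634 gene tests in these classes, a share near the background. With DESeq2 0 of the 102 were called, and 8 (7.84%) had an unadjusted p under 0.05. Of the 90532 gene tests to which DESeq2 gave an adjusted p, 7.80% did. The 102 were not limited to tests with an adjusted p, so the 2 shares rest on unlike sets. Without the 2 libraries that carried Xist, 1 was called, Hmox1 in LOH, where 184 of all 10888 genes tested were called. Without a filter on low counts 7 were called, 6 of them Hmox1. Calls over all genes also rose without that filter, in LOH from 467 of 10725 to 969 of 18128. In PC they rose from 241 of 9622 to 691 of 16869.

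The background of called genes in the same fits was 4.35% of genes in LOH, 2.76% in CNT, 2.5% in PC, 1.92% in the podocyte-like class, 1.15% in DCT and 1.13% in the macula densa-like class. It was 0.534% in IC, 0.353% in the macrophage-like class, 0.194% in the endothelial-like class, 0.0538% in the stromal and mesangial-like class, 0.0324% in PCT, 0.0257% in the T and NK-like class and 0% in DLH, and 1.07% over the sum of all cells. In DLH, where edgeR called 0 of 4394 genes, 295 had an unadjusted p under 0.05. Median log2 fold changes of the members tested ran from -0.25 in the stromal and mesangial-like class to 0.09 in IC, against medians of all genes between -0.05 and 0.01.

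**Figure D2:**
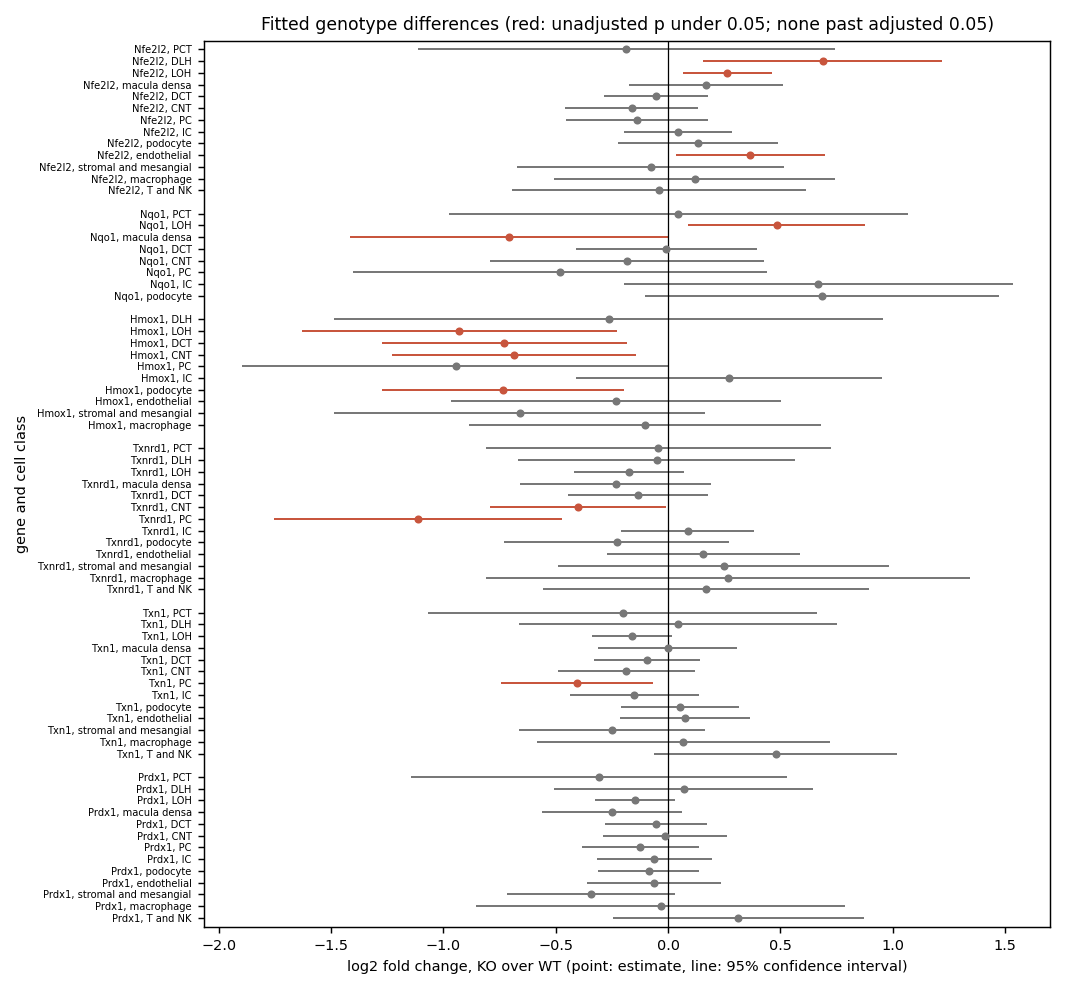
Log2 fold change, KO over WT, of Nfe2l2, Nqo1, Hmox1, Txnrd1, Txn1 and Prdx1 in each class tested (rows), with 95% confidence intervals as lines and red for an unadjusted p under 0.05. Estimates for Hmox1 lie below 0 in 9 of 10 classes, and that of Txnrd1 in PC lies farthest below 0 among those of this gene.

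Among the members Hmox1 had the most classes at an unadjusted p under 0.05 in edgeR. Its estimate was lower in KO in 9 of 10 classes tested (median log2 fold change -0.67), and 4 of them had an unadjusted p under 0.05, although the classes share the same mice and are not independent. In LOH it was at 35.1, 9.99 and 21.4 CPM in WT and at 11.6, 12.2 and 10.9 in KO. The WT libraries spread widely, and WT replicate 2 lay below all 3 KO libraries. The log2 fold change was -0.93 (SE 0.32, adjusted p = 0.14 in edgeR). Without WT replicate 2 it was -1.28 (adjusted p = 0.0049), without both Xist libraries -1.26 (adjusted p = 0.025), and without WT replicate 1 -0.48 (adjusted p = 0.45).

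In CNT Hmox1 was at 40.3, 32.7 and 63.9 CPM in WT and at 23.4, 33.1 and 28.4 in KO, and in DCT at 27.2, 46.3 and 38.5 against 14.3, 33.0 and 24.0. The groups overlapped in both. The log2 fold changes were -0.69 (SE 0.25, adjusted p = 0.23) and -0.73 (SE 0.25, adjusted p = 0.28), and CNT passed the threshold when WT replicate 2 was left out (-0.91, adjusted p = 0.041). Without WT replicate 3 the CNT value was -0.32 (adjusted p = 0.57), and without KO replicate 1 it was -0.50 (adjusted p = 0.61). Without the Xist libraries CNT stood at -0.72 (adjusted p = 0.17) and DCT at only -0.21 (adjusted p = 0.91). In PC, where Hmox1 was far higher, it was at 258, 107 and 396 CPM in WT and at 71.7, 110 and 203 in KO. That difference, -0.95 (SE 0.44, adjusted p = 0.36), was within the wide spread between libraries. IC had an estimate of the opposite sign, 0.27 on the log2 scale, from 139, 162 and 351 CPM in WT against 337, 185 and 254 in KO (SE 0.31, adjusted p = 0.82). The largest IC cluster was that led by Atp6v1g3 and Spink8 in WT (51.6% of WT and 35.9% of KO cells) and the Slc26a4 cluster in KO (32.1% and 36.9%).

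In the podocyte-like class Hmox1 was at 25.1, 33.5 and 29.5 CPM in WT and at 11.9, 18.5 and 25.7 in KO, a log2 fold change of -0.74 (SE 0.24, adjusted p = 0.14). Only the lowest WT and the highest KO library overlapped. Without the Xist libraries the value was -0.32 (adjusted p = 0.67). Here too, different clusters held most cells of the groups. The cluster led by Rab3b and Cdkn1c, with Nupr1 among its 10 leading genes, had 51.8% of WT and 28.1% of KO cells, and that led by Nphs1 and Ntrk3 had 36.9% and 53.3%. Hmox1 was at 33.2 ± 4.7 CPM in WT and 19.8 ± 6.2 in KO in the Rab3b cluster, and at 19.5 ± 6.4 and 18.6 ± 8.3 in the Nphs1 cluster.

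Other measures moved with the genotype in some of these classes. Summed neutrophil-like markers, all 6 detected, were at 0.941 to 1.33 CPM in WT and 2.06 to 7.34 in KO in LOH, and at 0.527 to 1.51 and 6.85 to 25.8 in the podocyte-like class. These sums were higher in every KO library than in every WT library in both classes. Summed macrophage-like markers overlapped between groups in both classes, at 5.64 to 8.49 CPM in WT and 8.19 to 9.18 in KO in LOH. The 12 genes of a list for dissociation stress, all detected, summed to 6525 to 7952 CPM in WT and 8854 to 11545 in KO in LOH (two-sided exact permutation p = 0.1, the smallest that 3 against 3 allows), whereas they overlapped in DCT, CNT and the podocyte-like class. Podocyte-like cells of KO had a median of 2663 to 3478.5 UMIs and 13.7% to 13.9% mitochondrial UMIs per library, against 4387.5 to 5386 UMIs and 10.9% to 11.9% in WT, with no overlap in either measure. In barcodes with 10 to 100 UMIs, a measure of free RNA, Hmox1 was at 41.3 ± 12.9 CPM in WT and 39.5 ± 17.3 in KO. The part of these measures in the Hmox1 values was not tested.

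**Figure D3:**
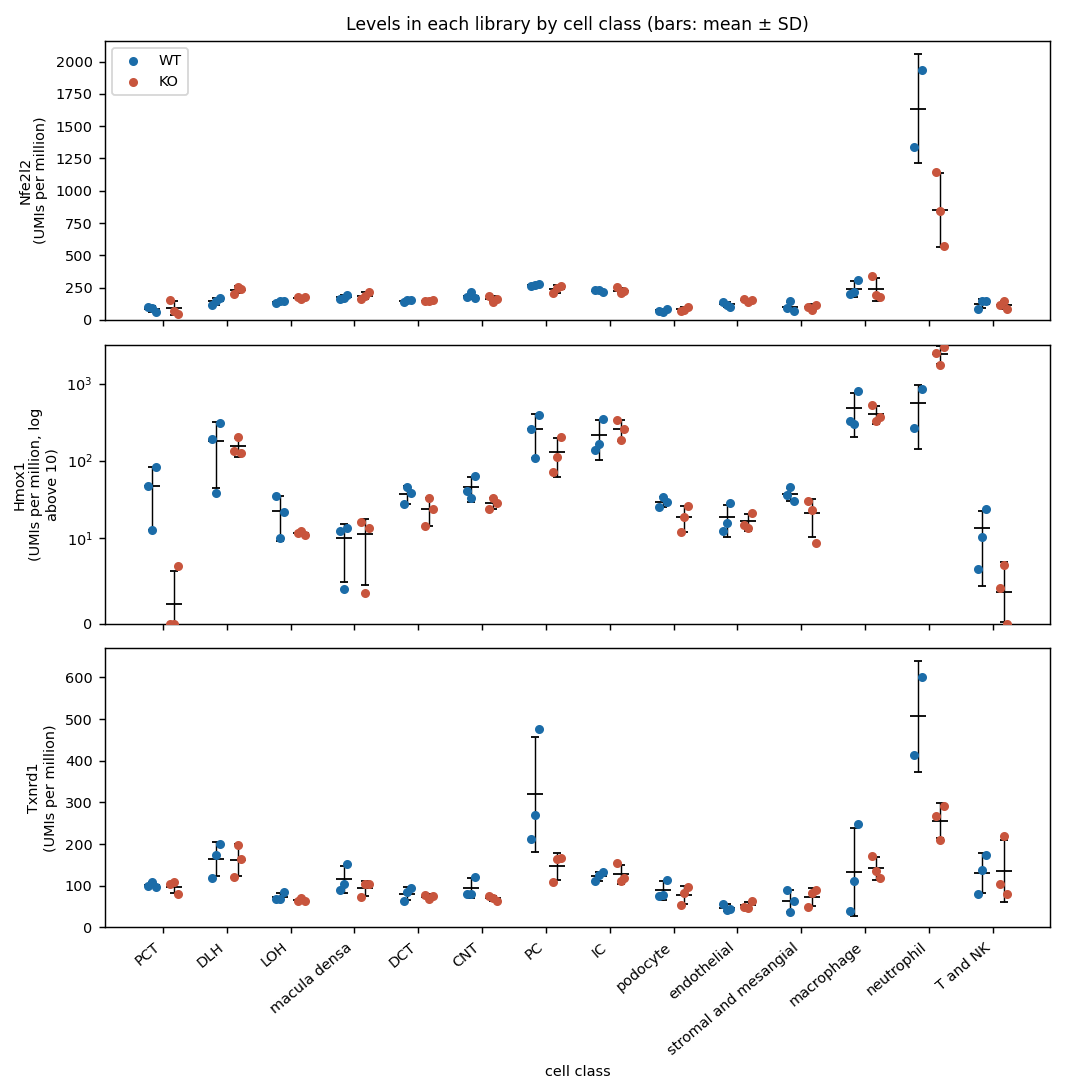
Levels of Nfe2l2, Hmox1 and Txnrd1 (CPM, Hmox1 on a logarithmic axis above 10) in each class, with 1 point per library (blue WT, red KO) and bars for mean ± SD. Txnrd1 in PC runs from 213 to 476 in WT and from 109 to 166 in KO, and Hmox1 in LOH spreads more in WT than in KO.

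Txnrd1 in PC had the lowest adjusted p of any tested pair of member and class. All 3 KO libraries (109, 165 and 166 CPM) lay below all 3 WT libraries (213, 269 and 476). The log2 fold change was -1.11 (95% confidence interval -1.75 to -0.48, SE 0.29, adjusted p = 0.074 in edgeR), short of the threshold. It passed without WT replicate 1 (-1.36, adjusted p = 0.023), and without WT replicate 3, the highest library, it was -0.65 (adjusted p = 0.19). With the Xist libraries as a block in the fit it passed as well (-1.13, adjusted p = 0.040), and without them it did not (-1.05, adjusted p = 0.20). In CNT Txnrd1 was at 80.3, 79.5 and 121.2 CPM in WT. The KO libraries, at 76.2, 70.7 and 63.4, lay below them, and the log2 fold change was -0.40 (SE 0.18, adjusted p = 0.37).

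Txn1, the protein that TXNRD1 reduces, was at 702, 768 and 710 CPM in PC in WT and at 517, 448 and 643 in KO. The groups did not overlap, and the log2 fold change was -0.41 (SE 0.15, adjusted p = 0.24). Without KO replicate 3 it was -0.60 and passed the threshold (adjusted p = 0.038). Without KO replicate 2 it was -0.31 (adjusted p = 0.52), without the Xist libraries -0.33 (adjusted p = 0.73), and with classes from marker scores -0.30 (adjusted p = 0.45). Prdx1 in PC showed the same arrangement at a smaller size, 652, 666 and 613 CPM against 599, 543 and 595, and its log2 fold change was -0.12 (SE 0.12, adjusted p = 0.71). Of the 9 members tested in PC, 8 had estimates below 0, with a median of -0.23, while the median of all 9622 genes in PC was 0.01. The share of all genes in PC whose groups did not overlap is not given here. In that class the dissociation stress list summed to 6515 to 7904 CPM in WT and 8745 to 13124 in KO (exact permutation p = 0.1), and neutrophil-like markers (5 of 6 detected, Ly6g at 0) to 0.410 to 1.95 and 1.24 to 8.76 CPM. In barcodes with 10 to 100 UMIs the WT libraries had Txnrd1 at 86.0, 97.6 and 112 CPM and the KO libraries at 71.3, 60.1 and 83.9, without overlap either (exact permutation p = 0.1). Prdx1 was there at 218, 247 and 235 CPM in WT and at 211, 160 and 204 in KO, also without overlap (exact permutation p = 0.1). Txn1 overlapped there (exact permutation p = 0.2). PC cells had a median of 4886.5 to 6402 UMIs in WT and 6694 to 7797 in KO, also without overlap. The part of free RNA, of dissociation and of UMIs per cell in the PC values was not tested.

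A direct comparison asked whether the genotype effect in a class differed from that in LOH, the deepest class, with the library as a block. Of 108 tests of members in 12 classes, 1 was called, Txnrd1 in PC, and 15 (13.9%) had an unadjusted p under 0.05, beside 9.45% of all 134983 gene tests in these comparisons. The log2 fold change of Txnrd1 in PC minus that in LOH was -0.86 (95% confidence interval -1.31 to -0.42, SE 0.21, adjusted p = 0.036). In LOH Txnrd1 was at 74.2 ± 8.9 CPM in WT and 66.2 ± 4.7 in KO. The call did not hold when WT replicate 2 (adjusted p = 0.071), WT replicate 3 (0.13), KO replicate 1 (0.16) or KO replicate 2 (0.10) was left out, with differences between -0.92 and -0.57. It was also lost with a limit of 30% mitochondrial UMIs (-0.98, adjusted p = 0.24). This comparison with LOH was not run without both Xist libraries or with a block for them. Genes called in these comparisons were 2.58% of those tested for PC, 3.28% for CNT, 1.96% for the podocyte-like class, 1.25% for IC, 1.07% for DCT, 0.87% for the endothelial-like class, 0.658% for the stromal and mesangial-like class, 0.572% for the macrophage-like class, 0.459% for the macula densa-like class, 0.296% for PCT, 0.245% for the T and NK-like class and 0.115% for DLH.

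Nfe2l2 itself had estimates above 0 in 7 of 13 classes and below 0 in 6. In LOH it was at 134, 145 and 146 CPM in WT and at 175, 160 and 178 in KO, without overlap and with little spread. The log2 fold change of 0.26 (SE 0.09, adjusted p = 0.13) did not pass the threshold. Both LOH clusters had the same arrangement of means, 144 ± 5.4 against 164 ± 10.8 CPM in the cluster led by Cldn10 and 138 ± 8.5 against 183 ± 8.5 in that led by Tmem207 and Cldn16. In DLH all 3 KO libraries, at 204, 253 and 241 CPM, lay above the WT libraries, at 113, 147 and 166 (log2 fold change 0.69, SE 0.24, adjusted p = 0.58), where the dissociation stress list also did not overlap between groups, at 7696 to 21860 and 23308 to 37391 CPM. The endothelial-like class had an estimate of 0.37 (SE 0.15, adjusted p = 0.46), with overlap. Its largest cluster was that led by Ehd3 and Kdr in WT and that led by Plvap and Esm1 in KO. In PC, CNT and DCT the estimates were -0.14, -0.16 and -0.06. Keap1 had estimates between -0.56 and 0.45 in 11 classes, with 0 at an unadjusted p under 0.05.

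Nqo1 in LOH was at 8.73, 7.33 and 9.14 CPM in WT and at 14.3, 10.5 and 11.0 in KO, without overlap, and its log2 fold change was 0.48 (SE 0.18, adjusted p = 0.17), or 0.28 without the Xist libraries (adjusted p = 0.67). In the macula densa-like class the groups were arranged in the other direction, at 21.0, 27.2 and 25.5 CPM in WT and 12.6, 16.1 and 14.8 in KO, with -0.71 (SE 0.34, adjusted p = 0.51) from 80 UMIs in all. Neither passed the threshold. In edgeR, Srxn1, Prdx1 and Prdx6 had 0 tests at an unadjusted p under 0.05 in 8, 13 and 13 classes. Estimates of Prdx1 were below 0 in 11 of 13 classes (median -0.06), and of Prdx6 in 10 (median -0.08). Their intervals limit how far they could differ in the deep classes: in LOH that of Prdx1 ran from -0.32 to 0.02 and that of Prdx6 from -0.30 to 0.14 on the log2 scale.

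Slc7a11 could be tested only over the sum of all cells. It was at 0.128, 1.81 and 2.12 CPM in WT and at 18.2, 8.87 and 8.28 in KO, and every KO library lay above every WT library. The log2 fold change was 3.10 (SE 0.71, adjusted p = 0.10 in edgeR), and DESeq2 gave an adjusted p of 0.042. Of 16 alternatives 4 passed the threshold, DESeq2 among them. The others, in edgeR, were no low-count filter (adjusted p = 0.036), the 30% mitochondrial limit (0.035) and no doublet removal (0.049). The log2 fold change was 2.94 without the Xist libraries (adjusted p = 0.46 in edgeR), 3.34 without WT replicate 2 (0.246) and 2.71 without KO replicate 1 (0.255). Neutrophil-like cells, which held nearly all of its UMIs, were 0%, 0.608% and 0.420% of retained cells in WT and 3.59%, 1.69% and 1.55% in KO. With these cells left out, a choice made after seeing the data, Slc7a11 stood at 0.128, 0.397 and 0.411 CPM in WT and at 0.939, 0.615 and 0.162 in KO, and the groups overlapped (exact permutation p = 0.4). A sum over all cells does not separate more cells of a type from more RNA per cell. Within the neutrophil-like class, at the levels given above, the WT and KO ranges of Slc7a11 overlapped. That class was not tested. Hmox1 over all cells was at 77.7, 59.8 and 122 CPM in WT and at 149.7, 85.7 and 101 in KO, and without neutrophil-like cells at 77.7, 59.4 and 122 against 102, 61.3 and 77.2. In barcodes with 10 to 100 UMIs Slc7a11 was also higher in KO, at 31.4, 8.71 and 7.17 CPM against 2.74, 4.00 and 4.66 in WT.

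**Figure D4:**
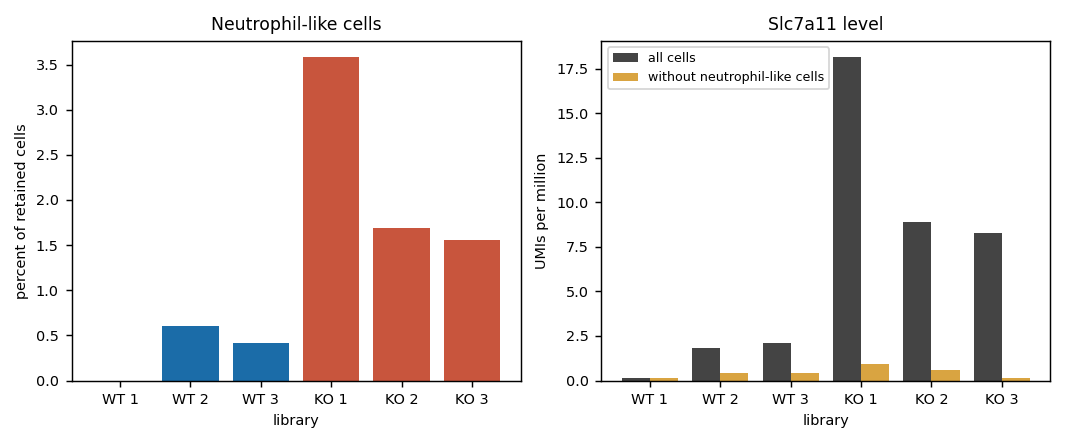
Left, the percent of retained cells that were neutrophil-like in each library (blue WT, red KO). Right, Slc7a11 in CPM over all cells (dark) and without neutrophil-like cells (yellow), which falls from 18.2 to 0.939 in KO replicate 1.

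The other genes of the pathway were described from a list of 52: 11 partners and regulators of NRF2, 21 other NRF2 target enzymes and carriers, and 20 other thioredoxin, peroxiredoxin and glutaredoxin genes. Of 555 tests in the 13 classes, 8 were called, 4 higher and 4 lower in KO, from 5 genes. This was 1.44% of the tests, near the 1.49% called among all genes in these classes. All 4 higher calls were in the thioredoxin group (Nxn, Msrb1) and all 4 lower calls in the enzymes and carriers (Slc3a2, Ftl1, Abcc1). None of the 11 partners and regulators was called in edgeR. Of their 122 tests 14 (11.5%) had an unadjusted p under 0.05, near the 11.6% of all genes. With DESeq2 the whole list had 11 calls, where calls over all genes were 407 of 10724 in LOH and 265 of 10333 in the podocyte-like class. Without the Xist libraries, which left 2 samples a group, 3 pairs were called, Nxn in PC and CNT and Msrb1 in DCT. Calls over all genes were then 123 of 9669 in PC, 196 of 9826 in CNT and 58 of 9606 in DCT. Called tests were spread over LOH (3), PC (2), DCT, CNT and the podocyte-like class (1 each), beside the background shares given above.

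Nxn, which encodes nucleoredoxin, an oxidoreductase of the thioredoxin family known to bind Dishevelled in Wnt signalling, had the largest change. In PC it was at 8.19, 7.14 and 5.07 CPM in WT and at 51.8, 38.3 and 26.6 in KO. The KO libraries lay at several times the WT level, and the log2 fold change was 2.52 (SE 0.28, adjusted p = 0.00073). It passed the threshold in all 18 alternatives tried, also without the Xist libraries (2.29, adjusted p = 0.0081). In CNT Nxn was at 2.34, 2.64 and 3.47 CPM in WT and at 8.47, 12.5 and 9.33 in KO, from 122 UMIs in all (log2 fold change 1.84, SE 0.32, adjusted p = 0.0049). When classes were assigned from marker scores instead of clusters, the CNT value was -0.54 (adjusted p = 0.55). IC was at 2.33, 2.14 and 1.88 CPM against 6.24, 3.62 and 4.46 (1.22, SE 0.33, adjusted p = 0.17). Nxn was highest in the podocyte-like class among these classes, at 60.2 ± 2.8 CPM in WT and 53.5 ± 1.9 in KO, and in LOH it stood at 7.50 ± 0.39 and 6.81 ± 0.94 CPM.

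Msrb1, which encodes the selenoprotein methionine sulfoxide reductase that repairs oxidised methionine, rose in DCT and LOH. In DCT it was at 62.6, 77.4 and 51.5 CPM in WT and at 149, 99.1 and 121.1 in KO (log2 fold change 0.95, SE 0.16, adjusted p = 0.0084), and in LOH at 42.3, 43.3 and 34.1 against 65.9, 51.0 and 56.1 (0.53, SE 0.12, adjusted p = 0.026). No KO library overlapped a WT library in either class. The DCT call was lost without KO replicate 1 (0.80, adjusted p = 0.096) and with a 30% limit on mitochondrial UMIs (1.29, adjusted p = 0.064). The LOH call did not hold when WT replicate 1 (adjusted p = 0.055), WT replicate 3 (0.10), KO replicate 1 (0.11) or KO replicate 3 (0.097) was left out, nor with a 30% limit on mitochondrial UMIs (0.26, adjusted p = 0.90). In CNT and PC, Msrb1 was at 45.0 ± 4.2 and 43.5 ± 6.5 CPM in WT and at 44.2 ± 3.6 and 40.4 ± 4.3 in KO.

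Slc3a2 encodes the heavy chain that carries SLC7A11 and other amino acid transporters to the cell surface. It fell in PC, from 306, 366 and 414 CPM in WT to 222, 223 and 200.2 in KO (log2 fold change -0.74, SE 0.15, adjusted p = 0.024), and in the podocyte-like class, from 251, 264 and 301 to 121.1, 164 and 185 (-0.81, SE 0.16, adjusted p = 0.029). The endothelial-like class had the opposite arrangement, 339, 252 and 294 against 480, 433 and 423 CPM (0.62, SE 0.14, adjusted p = 0.11). The PC call did not hold without any 1 of WT replicates 2 and 3 (adjusted p = 0.062 and 0.078) and of the KO replicates (0.084, 0.092 and 0.064), nor with classes from marker scores (-0.45, adjusted p = 0.20). The podocyte-like call did not hold without any 1 of the WT replicates (0.061, 0.091 and 0.096) or without KO replicate 2 (0.068), and the largest podocyte-like clusters, the UMIs per cell and the mitochondrial share differed between groups as given above. Their part in the Slc3a2 values was not tested.

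Ftl1, the ferritin light chain gene, fell in LOH from 460, 497 and 399 CPM in WT to 355, 361 and 331 in KO (log2 fold change -0.38, SE 0.09, adjusted p = 0.034). Leaving out WT replicate 1 (adjusted p = 0.087) or 2 (0.12), or any 1 of the KO replicates (0.11, 0.0502 and 0.11), ended the call, and with a 30% limit on mitochondrial UMIs the value was -0.06. Abcc1, the MRP1 export pump for glutathione conjugates, fell there from 34.7, 29.3 and 33.6 to 23.9, 25.1 and 19.98 CPM (-0.52, SE 0.12, adjusted p = 0.036). Its call ended without WT replicate 1 (adjusted p = 0.11) or 3 (0.10), without KO replicate 1 (0.10) or 3 (0.15), and in DESeq2 (0.066). For both genes the KO libraries lay wholly below the WT libraries.

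**Figure D5:**
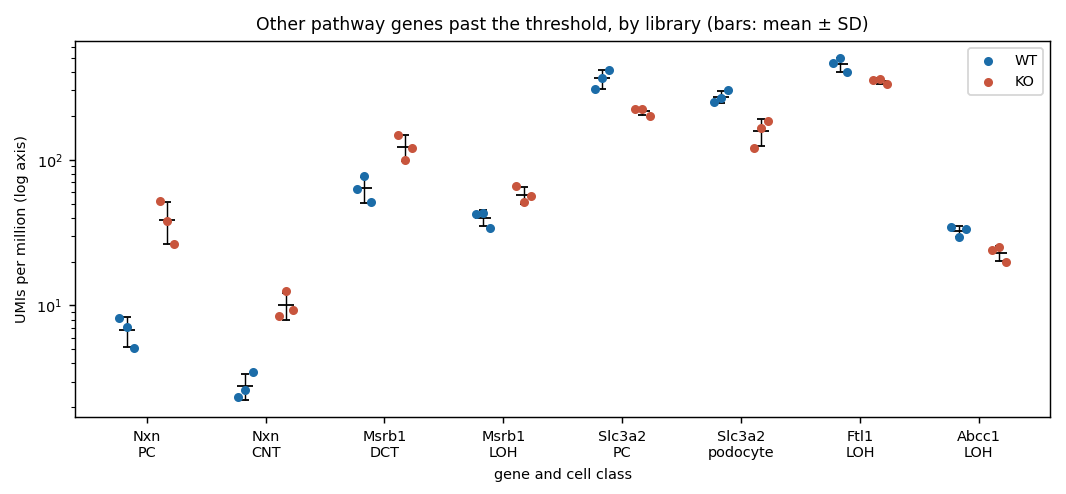
Levels by library (CPM, logarithmic axis) of the 8 called pairs of another pathway gene and a class, blue WT and red KO, with bars for mean ± SD. Nxn and Msrb1 are higher in every KO library than in every WT library, and Slc3a2, Ftl1 and Abcc1 lower.

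Among the genes of lowest p that were not called, Gclc, the catalytic subunit of glutathione synthesis, had log2 fold changes of -0.46 (SE 0.11, adjusted p = 0.0595) in DCT and -0.44 (SE 0.14, adjusted p = 0.13) in CNT. Maff was at -0.96 (SE 0.26, adjusted p = 0.070) in CNT, and Sqstm1, the autophagy receptor p62 that can displace NRF2 from KEAP1, at -0.48 (SE 0.13, adjusted p = 0.13) in DCT. Cbr3 in PC stood at -0.76 (SE 0.23, adjusted p = 0.12). In the podocyte-like class Gsta4, a glutathione transferase for lipid aldehydes, was at -0.51 (SE 0.12, adjusted p = 0.056) and the repressor Bach2 at 1.08 (SE 0.26, adjusted p = 0.057). In the remaining classes the 3 genes of lowest p had adjusted p-values from 0.11 to 0.98. They were Abcc4 and Prdx3 beside Nxn in IC, Txnip, Ftl1 and Mafk in the macula densa-like class, Sqstm1, Txndc17 and Rbx1 in PCT, and Txndc5, Osgin1 and Ephx1 in DLH. In the endothelial-like class they were Prdx5 and Pgd beside Slc3a2, in the stromal and mesangial-like class Sqstm1, Ftl1 and Rbx1, in the macrophage-like class Msrb1, Gsr and Txnl1, and in the T and NK-like class Tkt, Sqstm1 and Mafk. Over the sum of all cells Gsr, glutathione reductase, was at 0.49 (SE 0.09, adjusted p = 0.057), Msrb1 at 0.44 (SE 0.09, adjusted p = 0.089) and Gsta4 at -0.37 (SE 0.09, adjusted p = 0.13). Median log2 fold changes of the listed genes tested ran from -0.13 in PC to 0.06 in IC.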

How the data were processed

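The files the authors deposited hold unnormalised UMI counts for each gene in each barcode, from the pipeline of the BD Rhapsody WTA kit on mm10 with a GENCODE annotation, and barcodes without cells are included. The submitters' processing notes also name Scanpy 1.8. Here barcodes with 500 to 60000 UMIs, 200 to 8000 genes and at most 50% mitochondrial UMIs were kept. Scrublet's automatic threshold marked under 0.5% of cells in each library and had not worked, so the 6% of highest score were removed per library. Cells were clustered in scanpy 1.11.5 (2000 variable genes, 30 components, 15 neighbours, Leiden resolution 1.0) into 27 clusters, named from markers. Clusters 9, 15 and 22, which mixed markers of classes, stayed unnamed and entered only the sum of all cells.

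Counts summed per library and class were tested in edgeR 4.0.16 under R 4.3.3 (TMM, filterByExpr with a minimum count of 10, quasi-likelihood, two-sided, Benjamini-Hochberg over all genes of the class). CPM were computed here from the deposited counts. Their precision depends on the UMIs behind them. The fitting step was tested on simulated data. Replicate numbers were in the sample titles. The correlations of same-numbered libraries' deviations from group means, 0.214, -0.0622 and 0.214, did not meet the rule for pairing. DESeq2 1.42.0, other scalings, filters, limits, class rules, left-out libraries and blocks were tried as alternatives. The members and gene lists were chosen with earlier results of these data known. Members were compared in every tested class, and named were Prdm16, listed genes if called or among the 3 of lowest p, and similar genes by Pearson's r over WT class means (log2 of CPM + 1) among genes of at least 10 CPM. The genes most similar to Keap1 are not reported here. The libraries are 1 per mouse.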

Additional observations from a re-analysis of the deposited data

Results flagged for a closer look

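The KO effect on Txnrd1 differed between PC and LOH by -0.86 on the log2 scale in the test of the difference itself (SE 0.21, edgeR adjusted p = 0.036, 1 of 108 such tests of members). Txnrd1 was lower in 3 of 3 KO libraries than in every WT library in PC, and the groups overlapped in LOH. In that comparison 2.58% of all genes tested were called. Without WT replicate 3 the difference was -0.57 (adjusted p = 0.13). The call was also lost without WT replicate 2 (adjusted p = 0.071), KO replicate 1 (0.16) or KO replicate 2 (0.10). With a limit of 30% mitochondrial UMIs it was lost as well (adjusted p = 0.24). The difference was not fitted without both Xist libraries or with a block for them. Groups of 3 libraries were too small for the test of single libraries that stand apart.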

How the results depend on the processing

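The count of members called over classes, 0, became 7 without the low-count filter, 1 with equal cell numbers, 1 with a block for the Xist libraries, 1 in only the libraries without Xist and 2 with the replicate block, and ran from 0 to 2 when 1 library was left out. Listed pathway genes called, 8, became 28 without the low-count filter, 4 with the 30% mitochondrial limit, 3 in only the libraries without Xist and 13 with the replicate block, and ran from 4 to 8 without 1 library. Calls over all genes changed too. In LOH they were 467 of 10725, and 969 of 18128 without the low-count filter. There they were 24 of 3782 with the 30% limit, 184 of 10888 without the Xist libraries and 371 of 10725 with the replicate block. In the podocyte-like class the replicate block called 500 of 10334 instead of 198. In PC the replicate block called 277 of 9622 and the block for the Xist libraries 269, instead of 241. In CNT equal cell numbers gave 219 of 9479, instead of 281 of 10167. Without the low-count filter calls were 605 of 17557 in CNT, 691 of 16869 in PC and 327 of 17062 in DCT. They were then 772 of 17824 in the podocyte-like class and 80 of 14557 in PCT. Members whose effect differed from that in LOH, 1, became 0 with the 30% limit and 2 with no mitochondrial limit, and ran from 0 to 2 without 1 library. Over all genes such calls for PC, 289 of 11223, became 41 of 6962 and 347 of 11793 under these 2 limits. Nxn in CNT reversed to -0.54 with classes from marker scores. The causes were not tested. Replicate numbers did not meet the rule for pairing. The replicate block called Txnrd1 in PC (adjusted p = 0.0094) and Hmox1 in the podocyte-like class (adjusted p = 0.031), and ended Ftl1 (0.053) and Abcc1 (0.079) in LOH. Of 1798 member values under 18 alternatives, 1688 moved by at most 1 SE and 133 had the other sign. Removing the 6% of highest doublet score in every library was already the setting used. Depth limits PCT most, with 11 cells in 1 library, and Nqo1, Srxn1 and Slc7a11 in the small classes.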
